A study of Mus musculus with 16 samples.

Results

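Slco1a1, Hsd3b5 and Mup11 are 3 genes of male mouse hepatocytes that were chosen by name because their RNA fell in the livers of mice fed the AMLN diet. All 3 were present in both deposited tables, among 5205 genes listed in either table and 752 listed in both. Slco1a1 encodes an organic anion transporter of the hepatocyte's sinusoidal membrane that takes up bile acids, steroid conjugates and other organic anions. Hsd3b5 encodes an enzyme of the 3-beta-hydroxysteroid dehydrogenase family that works as a ketosteroid reductase in male liver. Mup11 encodes a major urinary protein, a small lipocalin that is secreted by the liver, passes into the urine and carries volatile pheromones.

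In adult male rodents growth hormone is released in separated pulses, and each pulse activates the transcription factor STAT5B in hepatocytes through the growth hormone receptor and the kinase JAK2. Many genes that are expressed more in male than in female liver depend on this pulsed pattern, and major urinary protein genes, Slco1a1 and Hsd3b5 are textbook examples of such male-biased genes. Genes with the opposite bias, among them several Cyp2b and Cyp2c genes and Cd36, are expressed more under the nearly continuous growth hormone of females.

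The livers came from 16 male mice of the C57BL6 background, 4 in each of 4 groups. Both genotypes are listed with an age of 8 weeks, without the time to which it refers. TSP1F/F mice carry a floxed Tsp1 gene, which encodes thrombospondin 1. Their TSP1ΔPf4 littermates carry in addition the Pf4-Cre transgene, whose promoter is active in megakaryocytes, so that Tsp1 is deleted in platelets and their precursors. The paper calls the deletion platelet-specific, and also names another Cre line as more stringent for the megakaryocyte lineage. Whether Tsp1 is intact in hepatocytes was not tested here. Each genotype was fed a low-fat (LF) diet or the AMLN diet, which is enriched in fat, fructose and cholesterol, for 32 weeks. The comparison between the diets asks how the steatohepatitis diet changes the liver, and the comparison between the genotypes asks what loss of platelet thrombospondin 1 changes in it.

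Library totals ranged from 17127965 to 39753019 reads, with group medians of 18908942 (TSP1F/F, LF), 27661651 (TSP1F/F, AMLN), 18838183 (TSP1ΔPf4, LF) and 27148200 (TSP1ΔPf4, AMLN). Levels are given as counts scaled to this total (CPM), or as FPKM, which are also scaled to gene length, where genes are compared with each other. Each table held only genes with an unadjusted p-value under 0.05 for the diet (2558 genes in TSP1F/F, 3399 in TSP1ΔPf4), and other genes are not analysed here. Of the 4 genes taken to define hepatocytes, Ttr was listed in both tables and Apoa1 in the TSP1ΔPf4 table, at group means between 3247 and 17374 CPM, and Alb and Fgb were not analysed here. The 3 genes were chosen on the difference between the diets in these same mice, so that difference is described without a test.

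Slco1a1 (ENSMUSG00000041698) is found in mm10 at chromosome 6, 141907282 to 141946962, reverse strand. Hsd3b5 (ENSMUSG00000038092) lies on chromosome 3 from 98618634 to 98630252, and Mup11 (ENSMUSG00000073834) on chromosome 4 from 60658466 to 60662411, both also on the reverse strand. The promoters are shown because the 3 genes share a dependence on growth hormone in males, and the windows can be read for the sites of hepatocyte factors. Each window is taken from RefSeq on GRCm38.p6 and runs 5′ to 3′ on the gene's own strand, from 250 bases before the start site to 50 bases after it. For Slco1a1 the window is chr6:141946913-141947212, for Hsd3b5 chr3:98645485-98645784 and for Mup11 chr4:60662346-60662645, all reverse strand. Capitals mark the sequence ATCAAT, the core bound by ONECUT factors.
Slco1a1: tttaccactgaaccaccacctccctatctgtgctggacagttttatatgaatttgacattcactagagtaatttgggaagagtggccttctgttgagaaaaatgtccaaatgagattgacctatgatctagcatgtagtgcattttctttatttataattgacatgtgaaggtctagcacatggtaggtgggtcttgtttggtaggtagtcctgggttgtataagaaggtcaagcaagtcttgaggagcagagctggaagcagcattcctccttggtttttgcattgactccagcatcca
Hsd3b5: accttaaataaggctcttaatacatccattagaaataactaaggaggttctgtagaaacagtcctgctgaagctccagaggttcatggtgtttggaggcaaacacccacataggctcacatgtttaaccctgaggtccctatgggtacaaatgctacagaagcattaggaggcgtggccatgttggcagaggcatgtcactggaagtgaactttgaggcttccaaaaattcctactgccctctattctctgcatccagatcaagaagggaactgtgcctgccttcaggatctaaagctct
Mup11: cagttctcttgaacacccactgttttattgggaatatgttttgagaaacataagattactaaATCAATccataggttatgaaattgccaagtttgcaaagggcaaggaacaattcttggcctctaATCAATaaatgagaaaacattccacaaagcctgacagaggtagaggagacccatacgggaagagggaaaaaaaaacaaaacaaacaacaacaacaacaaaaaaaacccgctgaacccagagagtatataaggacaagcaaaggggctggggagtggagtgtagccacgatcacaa
The RefSeq start site of Slco1a1 was the same as the start of the gene used for counting and that of Mup11 was 16 bases from it, while the RefSeq start of Hsd3b5 lay 15282 bases upstream. The windows were searched on both strands for 4 sequences, TTCNNNGAA (the STAT5 core), CAAAGTCCA (HNF4A), ATCAAT (the ONECUT core) and TGTTTAC (FOXA). Mup11 held ATCAAT at 2 places, starting 188 and 125 bases before the start site, and no other match was found in the 3 windows. ATCAAT was present in 7.54% of 32851 promoter windows of the same length, and in 14 of the 14 Mup genes with such a window. The STAT5 core was in 8.30% of all windows, the HNF4A sequence in 0.475% and the FOXA sequence in 3.65%, and none of them was in a Mup window. A match is only a match of letters, and the absence of one says nothing of sites outside these windows.

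The reads of the 3 genes can be assigned with unequal certainty. Of all stretches of 150 bases, the read length, in the longest annotated transcript, 0% of those of Slco1a1 and 1.21% of those of Hsd3b5 were also present in a transcript of another gene. In Mup11 78.2% were shared, with 15 other Mup genes, and most with Mup18, which held 57.6% of them. The count of Mup11 is therefore partly a count of its relatives, depending on how multiply mapped reads were treated, which is not given in the sources used here.

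Slco1a1 was high in every LF-fed liver and lower in every AMLN-fed liver. In bulk liver RNA, fewer cells of a type and less RNA per cell cannot be told apart. In LF-fed TSP1F/F mice 1 to 4 it was present at 508, 486, 1509 and 421 CPM, and on AMLN the 4 mice of this genotype had 59.8, 67.6, 26.9 and 34.5 CPM. Mouse 3 of the LF-fed group stood far above the other three. The means were 731 ± 520 and 47.2 ± 19.6 CPM (SD, n = 4 mice per diet), so that 6.46% of the LF level remained, a 15.5-fold difference, and without LF-fed mouse 3 the log2 fold change of the model went from -3.95 to -3.32. In TSP1ΔPf4 mice Slco1a1 was at 338, 328, 501 and 348 CPM on LF and at 201, 113, 35.9 and 267 CPM on AMLN. The AMLN-fed mice of this genotype were spread over a 7.44-fold range, with mouse 4 close to the LF-fed livers and mouse 3 within the range of the AMLN-fed TSP1F/F mice. The means were 379 ± 81.6 and 154 ± 101 CPM (SD, n = 4), and 40.8% of the LF level remained. Its lowest LF-fed mouse was 6.23 times its highest AMLN-fed mouse in TSP1F/F but 1.23 times in TSP1ΔPf4.

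Hsd3b5 was the member closest to absence on the AMLN diet. It was present at 118, 53.6, 380 and 54.9 CPM in LF-fed TSP1F/F mice, and at 1.88, 3.01, 0.704 and 0 CPM in the AMLN-fed mice. AMLN-fed mouse 4 had no read of the gene, and 3 counts, the limit that a count of 0 allows, would be 0.163 CPM in that library, for counting error only. The means were 152 ± 155 and 1.40 ± 1.32 CPM (SD, n = 4), so that 0.921% of the LF level remained. The log2 fold change went from -6.75 to -5.74 without LF-fed mouse 3 and to -7.39 without AMLN-fed mouse 2. In TSP1ΔPf4 mice it was at 81.2, 61.5, 142 and 55.8 CPM on LF and at 4.30, 3.08, 0.797 and 26.0 CPM on AMLN. Mouse 4 was again the highest and mouse 3 the lowest of the AMLN-fed TSP1ΔPf4 mice, 32.6-fold apart. The means of 85.2 ± 39.6 and 8.54 ± 11.7 CPM (SD, n = 4) left 10.02% of the LF level, and without mouse 4 the log2 fold change went from -3.33 to -4.97.

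Mup11 had a wide spread in both LF-fed groups. LF-fed TSP1F/F mice had 227, 65.8, 198 and 53.6 CPM and AMLN-fed mice 11.3, 22.9, 3.72 and 3.21 CPM. The means were 136 ± 89.2 and 10.3 ± 9.17 CPM (SD, n = 4), and 7.54% of the LF level remained. Without AMLN-fed mouse 2 the log2 fold change went from -3.73 to -4.48. In TSP1ΔPf4 mice the gene had 92.2, 52.2, 166 and 244 CPM on LF and 11.3, 21.4, 5.96 and 28.3 CPM on AMLN. The means were 139 ± 84.7 and 16.7 ± 10.02 CPM (SD, n = 4), and 12.1% remained. The AMLN-fed mice of both genotypes covered nearly the same range.

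**Figure D1:**
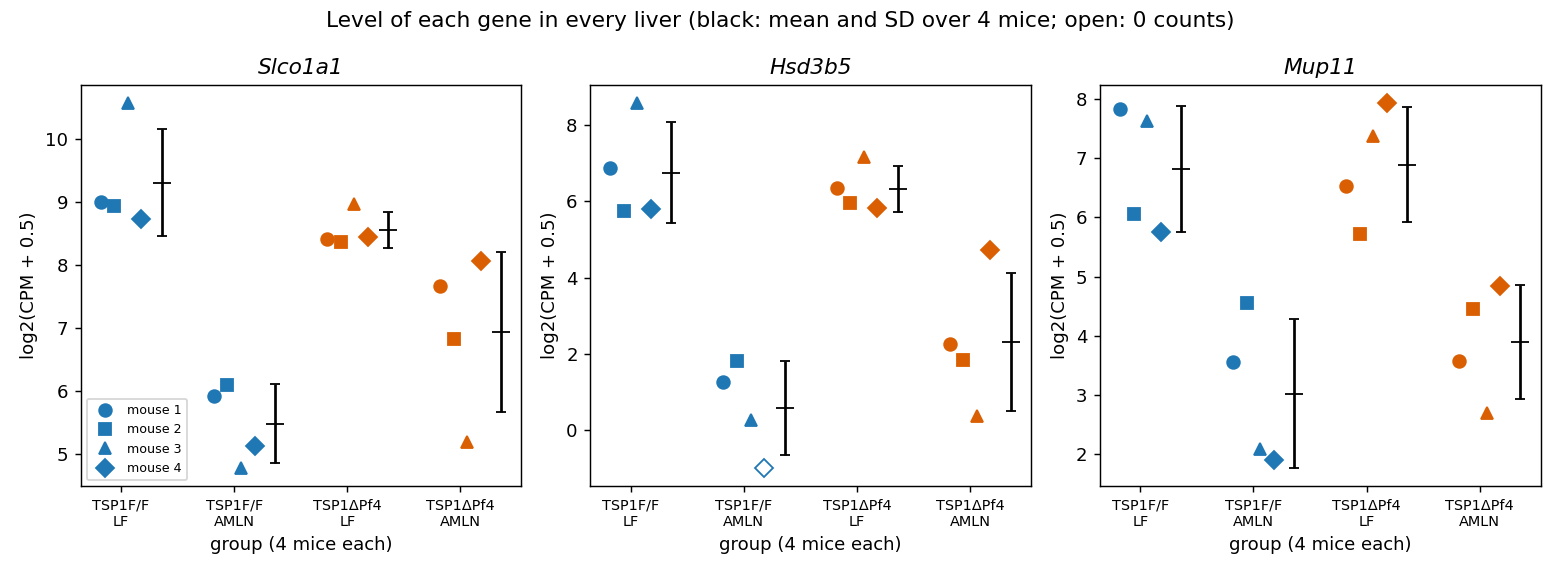
Level of Slco1a1, Hsd3b5 and Mup11 as log2(CPM + 0.5) in each of the 16 livers, by group, with symbols for mouse 1 to 4 and, in black, the mean and SD over 4 mice. In each panel and genotype the AMLN-fed mice lie below the LF-fed mice, and AMLN-fed TSP1ΔPf4 mouse 4 is the highest and mouse 3 the lowest of its group.

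Every AMLN-fed mouse was below every LF-fed mouse for all 3 genes in both genotypes. The same held for 13.3% of the genes listed for TSP1F/F and for 27.3% of those listed for TSP1ΔPf4, and the 3 genes were chosen on this difference. As lower on AMLN the tables listed 4.96% of the 16784 genes adjusted over in TSP1F/F and 13.6% of the 13927 in TSP1ΔPf4. On the log2 scale of the model the diet differences (AMLN over LF) were -3.95 for Slco1a1, -6.75 for Hsd3b5 and -3.73 for Mup11 in TSP1F/F mice. In TSP1ΔPf4 mice they were -1.30, -3.33 and -3.05.

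Per length, the 3 genes were of like abundance on the LF diet. In LF-fed TSP1F/F mice the mean was 139 ± 98.5 FPKM for Slco1a1, 97.9 ± 100 FPKM for Hsd3b5 and 86.4 ± 56.6 FPKM for Mup11 (SD, n = 4), and their ranges overlapped. In LF-fed TSP1ΔPf4 mice Mup11 came first with 88.0 ± 53.7 FPKM, followed by Slco1a1 with 71.8 ± 15.5 and Hsd3b5 with 55.0 ± 25.6 FPKM (SD, n = 4), again with overlapping ranges. On AMLN the order in TSP1F/F mice was Slco1a1 with 8.95 ± 3.71 FPKM, Mup11 with 6.52 ± 5.82 and Hsd3b5 with 0.902 ± 0.855 FPKM (SD, n = 4). Here the highest Hsd3b5 value, 1.94 FPKM, was below the lowest value of Mup11, 2.04 FPKM, and of Slco1a1, 5.10 FPKM, while Slco1a1 and Mup11 overlapped. In AMLN-fed TSP1ΔPf4 mice the means were 29.3 ± 19.2, 10.6 ± 6.36 and 5.51 ± 7.56 FPKM (SD, n = 4), and all 3 ranges overlapped.

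The mice that kept more of one gene tended to keep more of the others. Among AMLN-fed TSP1ΔPf4 mice, mouse 4 kept 70.5% of the LF-fed mean of Slco1a1, 30.5% of that of Hsd3b5 and 20.4% of that of Mup11. Mouse 3 of that group kept 9.48%, 0.936% and 4.30%. Mouse 1 came second for Slco1a1 with 53.1% and for Hsd3b5 with 5.05%, but mouse 2 came second for Mup11 with 15.4%. Among AMLN-fed TSP1F/F mice, mouse 2 kept the most of each gene, with 9.25%, 1.98% and 16.8%, and mouse 1 came second for each. The lowest was mouse 3 for Slco1a1, with 3.68%, and mouse 4 for Hsd3b5 and Mup11, the latter with 2.36%. The order of Hsd3b5 and Mup11 over these 4 mice was the same. These are values of 4 mice, and all 3 genes of a mouse come from 1 library.

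**Figure D2:**
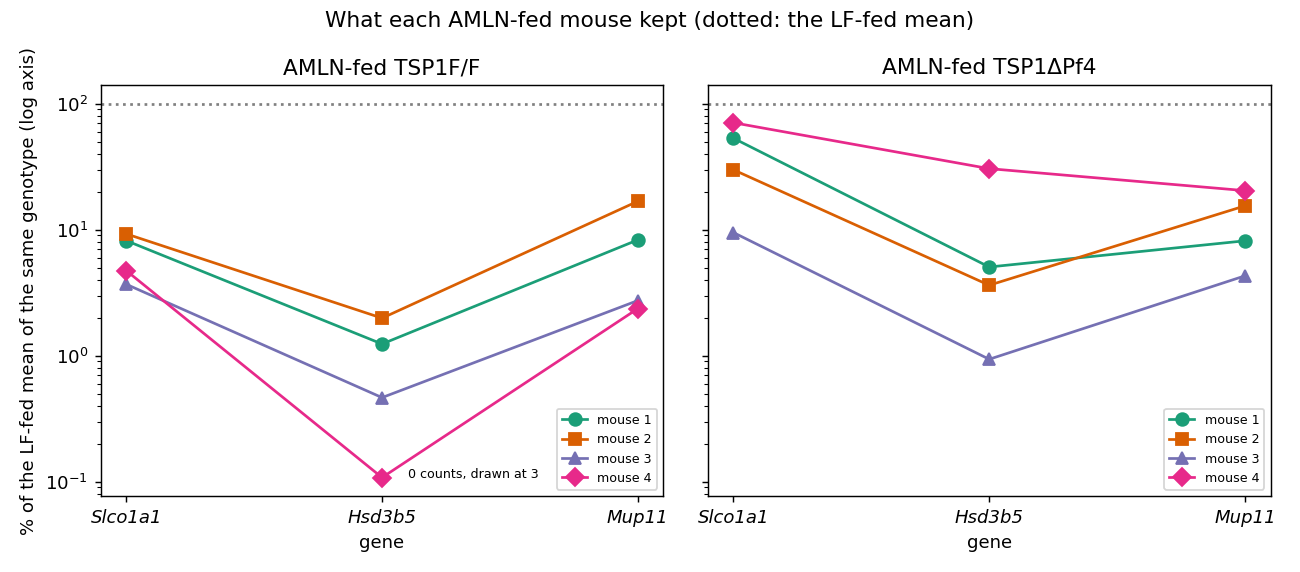
Level in each AMLN-fed mouse as a percentage of the LF-fed mean of the same genotype, on a log axis, for Slco1a1, Hsd3b5 and Mup11, with lines joining the values of 1 mouse. Mouse 2 is highest for each gene in TSP1F/F, and in TSP1ΔPf4 mouse 4 is highest and mouse 3 lowest for each gene.

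In the same AMLN-fed mice the summed level of hepatocyte markers was lower and that of macrophage markers higher than on LF, over markers that were listed because they differed between the diets. Of 25 hepatocyte markers, 5 were in both tables (Ttr, Serpina1a, Serpina1c, Serpina3k and Asgr1), and the summed level in TSP1F/F mice was 22480 to 36351 CPM on LF and 6707 to 15270 CPM on AMLN, and 21719 to 34502 and 10429 to 16733 CPM in TSP1ΔPf4 mice. The mean sum was 2.16-fold higher on LF than on AMLN in TSP1F/F mice and 1.93-fold higher in TSP1ΔPf4 mice, compared with 15.5-fold and 2.45-fold for Slco1a1, 109-fold and 9.98-fold for Hsd3b5 and 13.3-fold and 8.28-fold for Mup11. Of 12 macrophage markers, 9 were in both tables, and the sum in TSP1F/F mice was 48.4 to 431 CPM on LF and 432 to 2373 CPM on AMLN. In TSP1ΔPf4 mice the sum was 47.2 to 118 and 139 to 241 CPM. None of these markers was at 0 in all mice of a group. AMLN-fed TSP1ΔPf4 mouse 4, which kept most of the 3 genes, had the highest sum of both the hepatocyte and the macrophage markers in its group. Mouse 2 had the lowest hepatocyte sum there, 10429 CPM, and mouse 3 had 12099 CPM. Over the 4 stellate cell and fibroblast markers in both tables, mouse 4 had the lowest sum of this group, 27.2 CPM, and mouse 3 the highest, 113 CPM. In AMLN-fed TSP1F/F mice that sum was lowest in mouse 2, at 89.9 CPM, and highest in mouse 3, at 179 CPM. LF-fed TSP1F/F mouse 3, the highest for Slco1a1 and Hsd3b5, also had the highest sum of the hepatocyte and of the macrophage markers in its group. Its stellate cell and fibroblast sum, 18.1 CPM, lay within the 12.2 to 30.1 CPM of that group. In AMLN-fed TSP1F/F mice the hepatocyte sum was highest in mouse 2 (15270 CPM) and lowest in mouse 3 (6707 CPM), with 14255 and 14483 CPM in mice 1 and 4. The macrophage sum of these mice was lowest in mouse 1 (432 CPM) and highest in mouse 4 (2373 CPM). Single genes weighed heavily in these sums. Lyz2 gave 379 of the 431 CPM in LF-fed TSP1F/F mouse 3 and 167 of the 241 CPM in AMLN-fed TSP1ΔPf4 mouse 4. Serpina3k had a mean of 17593 CPM in LF-fed TSP1F/F mice, where the mean hepatocyte sum was 27392 CPM. The part of the cell makeup in the levels of the 3 genes was not tested.

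The genes whose profile over the mice was nearest to each member were searched in each table, by the root mean square difference of log2(CPM + 0.5) after each gene was centred on its mean over the 8 mice. In TSP1F/F mice Mup11 was the nearest of all listed genes to both Slco1a1 (a difference of 0.69) and Hsd3b5 (1.31). With a pseudocount of 1 in place of 0.5, Slco1a1 became the nearest to Hsd3b5 (1.05, against 1.14 for Mup11), and Hsd3b5 went from the 45th to the 7th nearest of Slco1a1. The next for Slco1a1 were Mup7, Mup9, Slc22a28 and Mup1, at 0.76 to 0.96, and for Hsd3b5 they were Slco1a1, Mup7, Mup14 and Mup17, at 1.33 to 1.62. Mup7 was the nearest to Mup11 (0.51), followed by Slco1a1, Mup8, Mup1 and Mup14. The neighbours in TSP1F/F mice were the other members, further Mup genes and Slc22a28, which encodes an organic anion transporter family member. The diet difference that chose the members is part of this distance. That the members lie near each other therefore follows in part from the choice.

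In TSP1ΔPf4 mice the nearest genes included several outside the Mup family. Slco1a1 was nearest to Ppp1r3g, which encodes a glycogen-targeting subunit of protein phosphatase 1 (0.36), then to Hectd2os, Mup-ps19, Arl4d and Adh6-ps1, at 0.38 to 0.49. Hamp, which encodes the iron hormone hepcidin, was the nearest to Hsd3b5 (0.86) and to Mup11 (0.67). Ppp1r3g and Enho, which encodes the peptide adropin, were among the 5 nearest of both, together with Mup11 and a lincRNA for Hsd3b5, and Mup1 and Mup9 for Mup11. Mup11 was the 1680th nearest of the listed genes to Slco1a1 in this genotype, at 1.01. Hamp had means of 845 CPM on LF and 154 CPM on AMLN in TSP1ΔPf4 mice. The likeness covers the difference between the diets as well as the spread within a diet, and the 8 mice of a table set all of these values.

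The other major urinary protein genes that were tested had lower means on AMLN, at widely different levels, and 4 Mup genes in neither table were not analysed here. Apart from Mup11, 15 Mup genes were listed and tested in TSP1F/F and 12 in TSP1ΔPf4, and all had a log2 fold change below 0 under each of the 5 scalings tried. Their median was -2.87 in TSP1F/F, against 1.15 over all 2096 genes tested, and -2.12 in TSP1ΔPf4, against -0.54 over all 3089 genes tested. Called were 0 of 15 in TSP1F/F and 1 of 12 in TSP1ΔPf4 (edgeR's quasi-likelihood test, adjusted p under 0.05), while 14 and 11 had an unadjusted p under 0.05. Of all genes tested, which were listed for their diet difference, 80.2% in TSP1F/F and 85.8% in TSP1ΔPf4 had such a p, and the shares of the lists given here and further on are to be read against these. Over all genes 0.0954% were called lower and 2.39% higher in TSP1F/F, and 1.52% lower and 1.46% higher in TSP1ΔPf4. DESeq2 called 456 genes lower and 285 higher in TSP1F/F, where edgeR called 2 and 50, and 366 lower and 1010 higher in TSP1ΔPf4, where edgeR called 47 and 45. With the Wald test of DESeq2, 11 of the 15 other Mup genes were called in TSP1F/F and 5 of the 12 in TSP1ΔPf4.

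The called gene was Mup20, which encodes darcin, the male pheromone that attracts females. It fell from a mean of 6273 to 2071 CPM in TSP1ΔPf4 mice, with a log2 fold change of -1.60 (SE 0.28; Benjamini-Hochberg adjusted p = 0.0406, edgeR). The call was lost in 5 of the 8 fits that each left out 1 mouse (without LF-fed mouse 2 or 4, or AMLN-fed mouse 1, 2 or 3), with an adjusted p of up to 0.130 (edgeR). Mup3, the most abundant, had means of 18872 and 6537 CPM in TSP1F/F mice (log2 fold change -1.53, adjusted p = 0.279, edgeR) and of 14835 and 5106 CPM in TSP1ΔPf4 mice (-1.54, adjusted p = 0.0620, edgeR). Mup19 had the lowest fold change of the family in both genotypes, -4.88 and -5.02, with LF-fed mice from 5.89 to 251 CPM in TSP1F/F and from 7.87 to 481 CPM in TSP1ΔPf4. Mup7 had means of 1518 and 163 CPM in TSP1F/F and of 2400 and 355 CPM in TSP1ΔPf4. Mup3, Mup20 and Mup21 share no 150-base stretch with Mup11, and their diet differences ranged from -1.60 to -1.18 over both tables, nearer to 0 than those of Mup11. The other listed Mup genes share stretches with Mup11, so their reads and those of Mup11 cannot be told apart there.

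Genes of the male-biased list were mostly lower, but part of them are Mup genes already counted above. These were Mup1, Mup3, Mup7, Mup12, Mup16 and Mup21 in TSP1F/F, and Mup1, Mup3, Mup7, Mup16, Mup20 and Mup21 in TSP1ΔPf4. Leaving out the 3 members, 14 genes of this list were tested in TSP1F/F, of which 13 had a log2 fold change below 0 and 0 were called (12 at an unadjusted p under 0.05, edgeR). DESeq2 called 12 of these 14. Selenbp2, which encodes a selenium-binding protein, was the exception, with 9.31 and 20.2 CPM on LF and AMLN. In TSP1ΔPf4 all 13 tested were below 0 and Mup20 alone was called with edgeR, against 3 genes with DESeq2. The medians were -1.82 and -1.16, while over all genes tested 63.4% were above 0 in TSP1F/F and 42.9% in TSP1ΔPf4. Outside the Mup genes, Nudt7, a peroxisomal hydrolase of coenzyme A, had means of 1022 and 252 CPM in TSP1F/F (log2 fold change -2.02, adjusted p = 0.313, edgeR). Its values overlapped between the diets, with 236 to 2791 CPM on LF and 175 to 435 CPM on AMLN. The complement gene C8b had 403 and 107 CPM (-1.92, adjusted p = 0.0749, edgeR), and Cyp7b1, an oxysterol hydroxylase of bile acid synthesis, had 262 and 70.4 CPM (-1.90, adjusted p = 0.124, edgeR). In TSP1ΔPf4 mice these 3 genes had differences of -1.11, -1.06 and -0.78.

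The female-biased genes lay on both sides of 0. Of 37 genes on the list, 9 were tested in TSP1F/F, 6 above and 3 below 0 with a median of 1.32, and 10 in TSP1ΔPf4, 5 above and 5 below with a median of 0.15. Over all genes tested, 63.4% were above 0 in TSP1F/F with a median of 1.15, and 42.9% in TSP1ΔPf4 with a median of -0.54. The calls in the list were Lpl, which encodes lipoprotein lipase, in both genotypes and Cd36, a fatty acid transporter, in TSP1ΔPf4 (edgeR), while DESeq2 called 4 genes in each genotype. Of all genes tested, edgeR called 2.39% higher in TSP1F/F and 1.46% in TSP1ΔPf4. Lpl rose from a mean of 11.6 to 176 CPM in TSP1F/F (log2 fold change 3.92, SE 0.47, adjusted p = 0.0138, edgeR) and from 15.1 to 64.8 CPM in TSP1ΔPf4 (2.11, SE 0.28, adjusted p = 0.0227, edgeR). Cd36 rose from 141 to 308 CPM in TSP1ΔPf4 (1.13, SE 0.20, adjusted p = 0.0406, edgeR). With 1 mouse left out, the call of Lpl was lost in TSP1F/F without LF-fed mouse 4, and in TSP1ΔPf4 it was lost in 4 of 8 fits for Lpl (without mouse 2 or 4 on LF, or 2 or 3 on AMLN) and in 6 of 8 for Cd36 (all but those without mouse 3 on LF or 4 on AMLN). Both are also expressed by macrophages, whose markers were higher in the same mice as given above. Atp6v0d2, Cyp3a16, Ntrk2 and Fmo2 had log2 fold changes of 2.90, 2.704, 1.47 and 1.32 in TSP1F/F, none of them called. Cyp2b10 and Cyp2b13 had too few counts to be tested between the diets, with means of 0.0281 and 0.107 CPM on LF and of 0.756 and 1.59 CPM on AMLN in TSP1F/F. In TSP1ΔPf4 both were at 0 in every LF-fed mouse and had means of 0.574 and 0.429 CPM on AMLN. Cyp2c40, Acot3 and Cyp4a14 had log2 fold changes of -1.66, -1.52 and -1.48 in TSP1F/F and of -1.09, -1.20 and -0.44 in TSP1ΔPf4, none of them called.

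**Figure D3:**
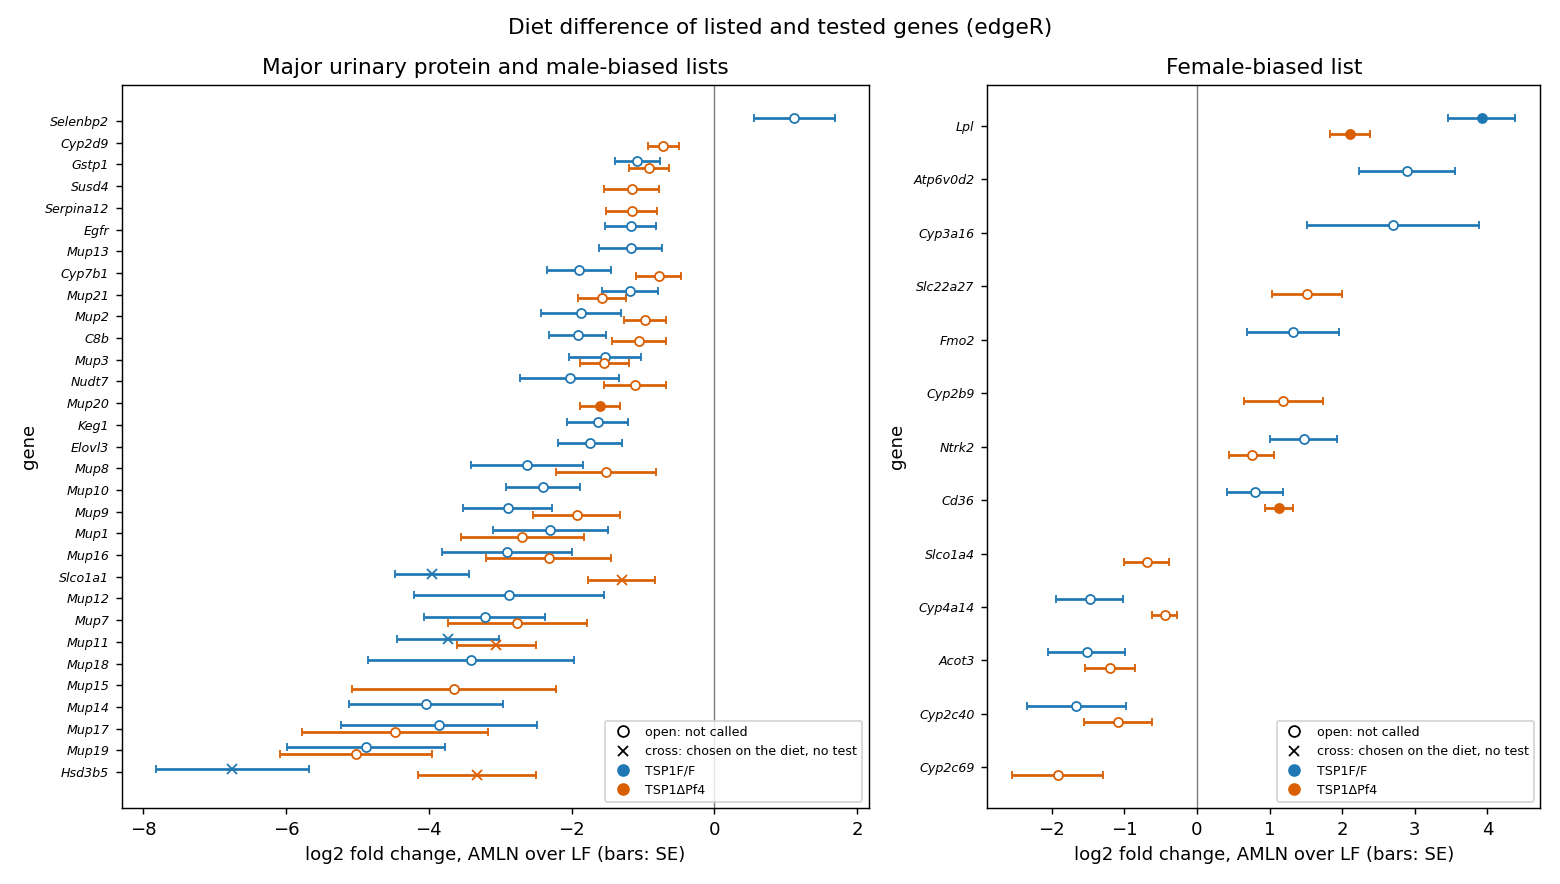
Log2 fold change, AMLN over LF, with its SE for the tested genes of the major urinary protein and male-biased lists and of the female-biased list, in TSP1F/F (blue) and TSP1ΔPf4 (orange). Filled circles were called, open circles were not, and crosses mark the 3 genes chosen on the diet difference. All but Selenbp2 lie below 0 in the left panel, while the right panel has genes on both sides.

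The 2 other families from which members were drawn had few genes in the tables. Of 9 Hsd3b genes only Hsd3b5 was listed, and the other 8 were not analysed here. Of 15 Slco genes, Slco1b2, another sinusoidal anion transporter, was listed in TSP1F/F with means of 3040 and 1672 CPM (log2 fold change -0.86, adjusted p = 0.511, edgeR), and Slco1a4 in TSP1ΔPf4 with 103 and 63.7 CPM (-0.69, adjusted p = 0.251, edgeR). Among 18 bile acid and canalicular transporters 7 were tested in each genotype. Abcg5, a half-transporter that exports cholesterol into bile, was the 1 gene called, higher in TSP1ΔPf4 (log2 fold change 1.08, adjusted p = 0.0467, edgeR), and the call was lost in 6 of the 8 fits with a mouse left out (all but those without LF-fed mouse 3 or AMLN-fed mouse 4). DESeq2 called 2 transporters in TSP1F/F and 5 in TSP1ΔPf4. The bile acid uptake transporter Slc10a1 had differences of -1.01 in TSP1F/F and -0.36 in TSP1ΔPf4 (adjusted p = 0.247 and 0.367, edgeR).

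The growth hormone pathway itself was sparsely represented. Of 20 genes of the receptor, its signal and its targets, 10 were in neither table and were not analysed here, among them Jak2, Stat5b, Socs2 and Cish. In TSP1F/F 6 were tested and 0 called (5 at an unadjusted p under 0.05, edgeR, and 4 called with DESeq2). Ghr, the receptor, had means of 496 and 302 CPM (log2 fold change -0.72, adjusted p = 0.373, edgeR), and Igf1, the main circulating target, 452 and 293 CPM (-0.63, adjusted p = 0.387, edgeR). For both, every AMLN-fed mouse was below every LF-fed mouse, as was the case for 13.3% of the genes listed for TSP1F/F. The 7 hepatocyte markers tested in the same mice had a median of -0.79. Igfbp2, which binds insulin-like growth factors, had 1313 and 564 CPM (-1.22), and Igfbp3, the main serum carrier of IGF1, 11.4 and 25.6 CPM (1.17). In TSP1ΔPf4 6 were tested and 0 called (3 at an unadjusted p under 0.05, edgeR, and 1 called with DESeq2), with Igfbp1 at -1.07 and Stat5a at 1.03. Of 22 transcription factors of sex-biased and hepatocyte genes, Bcl6, Nr0b2 and Nr1h4 were tested in TSP1F/F, at -1.01, -0.98 and -0.66. In TSP1ΔPf4 5 were tested, among them Foxa3 at -0.75, Hnf4a at 0.60 and Nr3c1 at 0.38. With edgeR 0 were called in either genotype (2 at an unadjusted p under 0.05 in TSP1F/F and 3 in TSP1ΔPf4), while DESeq2 called 2 and 4.

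Between the AMLN-fed genotypes, Slco1a1 had the largest difference of the 3 genes relative to its error. The AMLN-fed mice compared here are also those whose low values led to the choice of the genes, so these tests are not independent of that choice. On AMLN the mean was 3.27-fold higher in TSP1ΔPf4 than in TSP1F/F mice, and 3 of 4 TSP1ΔPf4 mice were above all TSP1F/F mice. The log2 fold change was 1.71 (SE 0.52, 95% interval 0.59 to 2.83), with an adjusted p = 0.0613 over 733 genes (edgeR), which misses the threshold, and the exact permutation test over the mice gave p = 0.0857 (two-sided; 0.257 adjusted over 6 tests), where 4 against 4 cannot go below 0.0286. Of these 733 genes 0.546% were called higher and 8.46% lower in TSP1ΔPf4 mice (4 and 62 genes, against 17 and 56 with DESeq2). With DESeq2 the adjusted p was 0.00189, and with size factors of DESeq2 or TMM within edgeR 0.0436 and 0.0412, with the median of all genes moved from -0.38 to -0.03, -0.02 and -0.10. With the size factors deposited by the authors it was 0.0648, and the median of all genes was -0.42. Without TSP1ΔPf4 mouse 3 the difference was 2.04 (adjusted p = 0.0134, edgeR), and this was the only 1 of 8 fits with a mouse left out that passed. Over these fits it ranged from 1.31 to 2.04, with an adjusted p of up to 0.158 (without TSP1F/F mouse 3, edgeR).

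Hsd3b5 was 6.11-fold higher in mean in AMLN-fed TSP1ΔPf4 than TSP1F/F mice. Of the TSP1ΔPf4 mice 3 of 4 were above all TSP1F/F mice, but mouse 2 only by 3.08 against 3.01 CPM. The log2 fold change was 2.60 (95% interval 0.29 to 4.91, adjusted p = 0.146, edgeR). This value rested on mouse 4, without which it was 0.96. The exact permutation test gave p = 0.143 (0.286 adjusted over 6 tests). Mup11 differed by 0.71 (95% interval -0.63 to 2.04; adjusted p = 0.516, edgeR), with an exact permutation p = 0.314 (0.471 adjusted), and its difference was 0.33 without TSP1ΔPf4 mouse 4 and 1.46 without TSP1F/F mouse 2. An interval of this width does not show that the genotypes were alike.

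On LF none of the 3 genes was called, nor was any of the 640 genes tested (0% higher and 0% lower; 44 had an unadjusted p under 0.05 with edgeR, and DESeq2 called 1). Slco1a1 had a log2 fold change of -0.95 (95% interval -1.85 to -0.05; adjusted p = 0.676, edgeR) and an exact permutation p = 0.0857 (0.257 adjusted), and it was -0.32 without LF-fed TSP1F/F mouse 3. Hsd3b5 had -0.83 (-2.16 to 0.49; adjusted p = 0.676, edgeR; exact permutation p = 0.714), which turned to 0.18 without the same mouse. Mup11 had 0.03 (-1.19 to 1.25; adjusted p = 0.997, edgeR; exact permutation p = 0.914), a value whose sign differed between scalings.

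The difference in diet response between the genotypes is built from the same diet values that chose the genes. For Slco1a1 the fall was smaller in TSP1ΔPf4 mice by 2.66 on the log2 scale (SE 0.72, 95% interval 1.14 to 4.17; adjusted p = 0.0558 over 734 genes, edgeR interaction term), which misses the threshold. For Hsd3b5 the estimate was 3.43 (0.66 to 6.20; adjusted p = 0.184, edgeR) and for Mup11 0.68 (-1.24 to 2.59; adjusted p = 0.854, edgeR). Of all genes tested 0% were called higher and 0.409% lower (0 and 3 genes, against 12 and 32 with DESeq2 and 110 at an unadjusted p under 0.05 with edgeR). For Slco1a1 the adjusted p was 0.00416 with DESeq2 and 0.0476 to 0.0499 with its size factors or TMM within edgeR, and 0.0568 with the deposited size factors. The estimate was between 2.03 and 2.99 over the mice left out in turn. It passed the threshold in only 1 of these 16 fits, that without AMLN-fed TSP1F/F mouse 2 (2.88, adjusted p = 0.04996, edgeR).

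**Figure D4:**
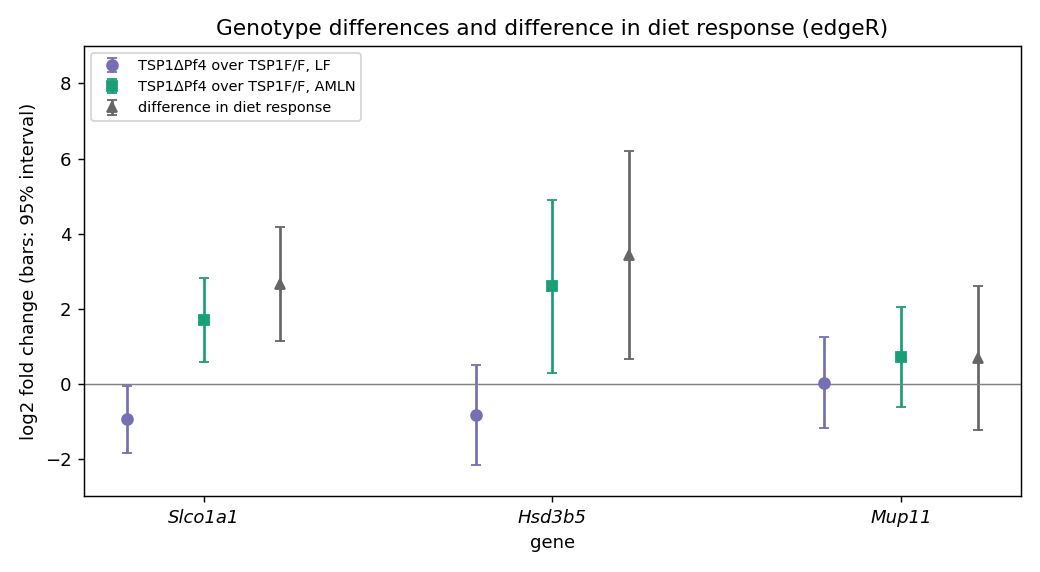
Log2 fold change of TSP1ΔPf4 over TSP1F/F on LF (circles) and on AMLN (squares) and the difference in diet response (triangles) for Slco1a1, Hsd3b5 and Mup11, with 95% intervals from the model. The intervals of Slco1a1 and Hsd3b5 on AMLN and of their diet response lie above 0, those of Mup11 include 0, and none of the 9 values passed the threshold after adjustment.

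Other male-biased genes gave no call between the genotypes. Of the 9 that were tested on AMLN apart from the members, 6 were above and 3 below 0, with a median of 0.39 against -0.38 over all genes, and 0 were called (0 at an unadjusted p under 0.05, edgeR). With the members included, 3 of 12 were below 0, and 1 of 12 with DESeq2, its size factors or TMM. Cyp7b1 had a log2 fold change of 0.71, C8b of 0.51 and Nudt7 of -0.25 (adjusted p = 0.313, 0.435 and 0.731, edgeR). Of 10 other Mup genes 7 were above and 3 below 0 and 0 were called (0 at an unadjusted p under 0.05, edgeR, and 0 with DESeq2). Mup1, Mup3, Mup7, Mup16 and Mup21 are in both of these counts. Of 8 female-biased genes tested on AMLN, 4 were above and 4 below 0. Of them 2 were called higher and 1 lower, against 0.546% and 8.46% of all genes. On LF, Acot3, Cyp4a14 and Lpl had differences of 1.36 (unadjusted p = 0.0152, edgeR), 0.44 and 0.37, none of them called. Their differences in diet response were 0.32, 1.03 and -1.81, also not called. On AMLN, Acot3 and Cyp4a14, an acyl-CoA thioesterase and a fatty acid hydroxylase, were higher in TSP1ΔPf4 mice, by 1.68 and 1.47 (adjusted p = 0.0298 and 0.0420, edgeR). Lpl was lower, by -1.44 (adjusted p = 0.0311, edgeR). With 1 mouse left out, these calls were lost in 4 of 8 fits for Acot3 (without TSP1F/F mouse 3 or TSP1ΔPf4 mouse 2, 3 or 4), in 7 for Cyp4a14 (all but that without TSP1F/F mouse 4) and in 5 for Lpl (all but those without TSP1F/F mouse 1 or 2 or TSP1ΔPf4 mouse 3). In the same comparison 5 of the 9 macrophage markers tested were called lower, among them Trem2 with -3.06 and Gpnmb with -2.41 (adjusted p = 0.00533 and 0.00850, edgeR), both called in all 8 fits with a mouse left out, and the 5 hepatocyte markers were not called and had a median of 0.20. Whether the cell makeup of the livers bears on the values of Slco1a1 and Hsd3b5 between the genotypes was not tested.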

How the data were processed

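The authors sequenced libraries of 16 livers as read pairs and aligned them to mm10, with STAR according to the paper's methods and with HISAT2 according to the submitters' processing notes. How reads of near-identical genes were counted, the annotation release and the use of strand are not given in the sources used here. The deposited counts are raw reads per gene, the deposited signal is each count divided by 1 size factor per library, and the deposited FPKM are counts divided by gene length and a library total. The deposited p-values and log2 fold changes are from the authors' DESeq2 comparison of the diets. The p-values served only to find how many genes were adjusted over (16784 and 13927), and the fold changes were not used. All columns of single mice were matched to a mouse, with 0 left over.

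Library totals were computed from counts, lengths and FPKM. The quasi-likelihood F test of edgeR 4.0.16, run in R 4.3.3 with a prior count of 0.125 after filterByExpr, was fitted to the counts of each whole table, with Benjamini-Hochberg adjustment over the genes the authors adjusted over for the diets, and over the genes tested among the 752 in both tables for the genotypes. Calls required an adjusted p under 0.05 together with a log2 fold change above 0.25 in size. The spread shared between genes rests on genes selected for the diet, which limits every p. Exact permutation tests used the 4 mice per group, and the labels name no batch. The diet and genotype fits were tested on simulated data. Alternatives were DESeq2 1.42.0, other scalings, no filter, other adjustments, a replicate block and each mouse left out.

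The 3 genes and all 21 gene lists were chosen with earlier results of these data known. Genes named were the 3 members, the 5 nearest profiles per member and table, every called gene of 8 lists around the members and up to 6 others of each with the largest change, and a few others named after their values were seen. Values of some listed genes are not reported here.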

Additional observations from a re-analysis of the deposited data

Results flagged for a closer look

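In 3 of the 12 combinations of gene and group, 1 of the 4 mice stood apart from the others by Dixon's criterion, which chance alone meets in about 1 group of 20. Slco1a1 was at 1509 CPM in LF-fed TSP1F/F mouse 3, against 421 to 508 CPM in the other three. In LF-fed TSP1ΔPf4 mouse 3 it was at 501 CPM, against 328 to 348 CPM in the others. Hsd3b5 was at 26.0 CPM in AMLN-fed TSP1ΔPf4 mouse 4, against 0.797 to 4.30 CPM in the others.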

How the results depend on the processing

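The log2 diet differences of the 3 genes stayed below 0 under every alternative and with each mouse left out. Over the alternatives without a mouse left out they ranged from -4.28 to -3.78 (Slco1a1), -7.07 to -6.74 (Hsd3b5) and -4.04 to -3.73 (Mup11) in TSP1F/F, and from -1.54 to -0.995, -4.22 to -3.05 and -3.05 to -2.71 in TSP1ΔPf4. Folds computed from the deposited FPKM and scaled counts in place of CPM moved by less than the spread between mice. With a pseudocount of 1 the 5 nearest profiles of each gene and table shared 4 or 5 genes with those at 0.5.

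Between the AMLN-fed genotypes, Slco1a1 passed the threshold with DESeq2 (2.00), TMM (1.95), DESeq2 size factors (2.00) and the replicate block (1.45, adjusted p = 0.00475, edgeR), and leaving out mice gave 1.31 to 2.04. Its difference in diet response passed with DESeq2 (2.95), TMM (2.95) and DESeq2 size factors (2.95), and gave 2.03 to 2.99 without single mice. On LF, Mup11 turned below 0 with DESeq2 (-0.0301), TMM (-0.0214), DESeq2 size factors (-0.0300) and deposited size factors (-0.0341), an alternative chosen after seeing the data, and ranged from -0.39 to 0.39 without single mice, while Hsd3b5 ranged from -1.20 to 0.18. In TSP1ΔPf4 the block also ended the diet calls of Mup20 (adjusted p = 0.111, edgeR), Lpl (0.0625), Cd36 (0.136) and Abcg5 (0.144). The cause of these changes was not tested. TMM and DESeq2 size factors were estimated from genes selected for a diet difference.

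Counts of called genes depended strongly on the processing. For the diet in TSP1F/F, 52 genes were called, 741 with DESeq2 (285 higher and 456 lower, against 50 and 2), 28 with DESeq2 size factors, 83 without a filter, 10 with the replicate block, 1124 when adjusted over the table only (807 higher and 317 lower), and 2 (without LF mouse 4) to 61 (without LF mouse 3) without single mice. In TSP1ΔPf4 it was 92 (45 higher and 47 lower), 1376 with DESeq2 (1010 and 366), 198 with TMM (160 and 38), 190 with DESeq2 size factors (152 and 38), 4 with the block, 2187 over the table only (825 and 1362), and 1 (without LF mouse 4) to 182 (without AMLN mouse 4). For the genotypes on AMLN it was 66 (4 higher and 62 lower), 73 with DESeq2 (17 and 56), 48 with TMM (11 and 37), 44 with DESeq2 size factors (11 and 33), 116 with the block, and 22 (without TSP1ΔPf4 mouse 2) to 84 (without TSP1F/F mouse 2). On LF it was 0, and 1 with DESeq2. For the difference in diet response it was 3, and 44 with DESeq2 (12 and 32), 15 with TMM (8 and 7), 18 with DESeq2 size factors (11 and 7), 8 with deposited size factors (2 and 6), 0 with the block, and 0 to 24 (without AMLN-fed TSP1F/F mouse 2). The median of all genes moved with DESeq2's size factors from 1.15 to 0.78 (TSP1F/F), from -0.54 to -0.20 (TSP1ΔPf4) and from -0.34 to 0.01 (difference in diet response). Mice with the same number deviated together in part only (correlations of -0.47 to 0.48 over the 4 comparisons, and 0.09 to 0.40 on AMLN, where 3 of 4 were closest to their own number), so numbers were not taken as pairs.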

Other observations

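Zonation genes of hepatocytes were also in the tables. Over all genes tested the median log2 diet difference was 1.15 in TSP1F/F and -0.54 in TSP1ΔPf4, and edgeR called 0.0954% and 1.52% lower. Of 13 periportal genes 6 were tested in TSP1F/F with a median log2 diet difference of -0.92 and 0 called, and 5 in TSP1ΔPf4 with a median of -0.75 and 1 called lower. Of 14 pericentral genes 2 and 3 were tested, with medians of 0.41 and -0.73 and 0 called in each.

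Markers of other liver cells were mostly above 0 on AMLN. Over all genes tested, 63.4% were above 0 in TSP1F/F with a median of 1.15, and 42.9% in TSP1ΔPf4 with a median of -0.54. Of these genes edgeR called 2.39% and 1.46% higher. In TSP1F/F the Kupffer cell median lay close to that of all genes and the endothelial median below it. Of 11 stellate cell and fibroblast markers 7 were tested in TSP1F/F, with a median of 2.62 and 3 called higher, and 4 in TSP1ΔPf4, with a median of 1.37 and 0 called. Of 7 Kupffer cell markers 5 and 3 were tested, with medians of 1.16 and 1.16 and with 0 and 1 called higher. Below 0 among them were Marco (-2.75) and Cd163 (-3.71) in TSP1F/F and Cd163 (-1.79) in TSP1ΔPf4. Of 6 cholangiocyte markers 3 and 2 were tested, with medians of 2.30 and 0.99, and of 7 endothelial markers 3 and 3, with medians of 0.98 and 0.64, with 0 called in each. The endothelial marker Kdr was below 0 in TSP1ΔPf4, at -0.46. Of 10 T cell markers 1 was tested in TSP1F/F and called higher, at 6.55. In TSP1ΔPf4 2 were tested and went opposite ways, Cd8a at 3.39 and Zap70 at -1.51, with a median of 0.94. Of the B cell, neutrophil, platelet and red blood cell markers 1, 2, 1 and 2 were tested in TSP1F/F, with medians of 1.29, 1.91, 3.14 and 2.03, and 1 red blood cell marker in TSP1ΔPf4, at -1.37, with 0 called. The calls are those of edgeR's quasi-likelihood test. With each mouse left out in turn, the called genes named by these lists passed in 0 (Cd8a, T cells) to 4 (Timp1 and Col3a1, stellate cells) of 8 fits.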
